A study of Homo sapiens with 12 samples.

Results

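Cancer-testis antigens are proteins whose genes are active in male germ cells, largely silent in other adult tissues, and switched on in a share of tumours. The 9 genes described here (MAGEA1, MAGEA3, MAGEA4, MAGEA6, MAGEA12, MAGEC1, MAGEC2, CTAG2 and PRAME) were taken by symbol, whatever their values, from 33694 human genes listed. They were followed in 2 human melanoma lines. A375 is an established line with an activating BRAF mutation, and A375-BIR is labelled as its BRAF-inhibitor-resistant counterpart; how A375-BIR was derived, and whether it is 1 clone, is not given in the sources used here. The groups were A375-BIR with dabrafenib, A375-BIR with DMSO, A375 with dabrafenib and A375 with DMSO. Dabrafenib, an inhibitor of the BRAF kinase, was given at 200 nM and DMSO, the solvent, at 0.1%, each for 48 h. The labels call the 3 libraries of a group biological replicates. The files of 2 of the 3 A375 DMSO libraries list mouse genes although their labels say human, so they entered no comparison, and A375 with DMSO stands as 1 library with no spread of its own.

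MAGE proteins share a MAGE homology domain, through which many of them bind RING-type ubiquitin ligases and alter which proteins those ligases mark. MAGE-A, MAGE-C and CTAG genes lie on the X chromosome, and PRAME, a leucine-rich-repeat protein, lies on chromosome 22. In most somatic cells these genes are held silent by DNA methylation of their promoters. In melanoma their peptides can be shown to T cells on MHC class I molecules, which is how the first members were found and why several are targets of vaccines and engineered T cells.

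The MAGE genes also resemble one another at their promoters. RefSeq (GRCh38.p14) gives promoters, each from 250 bases before to 50 after a start, for 7 of the 9 genes, 14 starts in all; MAGEA1 and CTAG2 had no entry. The stretches below are shown because the MAGE-A genes, which differed in the data, share a pair of runs of letters there, and the MAGE-C genes hold 1 of these runs. Each runs from 30 bases before the first base of GGATGTG toward the start, with GGATGTG, and the longest run shared by promoters of MAGEA3, MAGEA4 and MAGEA12, in capitals.
MAGEA3 (chrX:152698678-152698747, + strand): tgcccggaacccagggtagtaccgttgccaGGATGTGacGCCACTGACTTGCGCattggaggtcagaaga
MAGEA4 (chrX:151918215-151918284, + strand): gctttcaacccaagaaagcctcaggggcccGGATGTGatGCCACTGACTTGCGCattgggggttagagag
MAGEA12 (chrX:152733715-152733784, + strand): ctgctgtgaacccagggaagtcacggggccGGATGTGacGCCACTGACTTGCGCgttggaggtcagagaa
MAGEC1 (chrX:141903820-141903889, + strand): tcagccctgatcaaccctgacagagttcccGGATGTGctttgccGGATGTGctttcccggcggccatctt
MAGEC2 (chrX:142205290-142205326, - strand): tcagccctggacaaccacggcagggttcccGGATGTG

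The MAGEA3 and MAGEA6 promoters were identical at 300 of 300 bases, so the MAGEA3 letters stand for MAGEA6 (promoter at chrX:152769640-152769939, - strand) too. Both motifs were chosen after the sequences had been seen, both strands were searched, and the motifs do not overlap in the stretches shown. The 15-base run GCCACTGACTTGCGC was found in 8 of the 14 promoters, from 4 of the 7 genes (MAGEA3, MAGEA4, MAGEA6 and MAGEA12). Its presence in these 4 was set in advance. It was picked as shared by MAGEA3, MAGEA4 and MAGEA12, and the MAGEA6 promoter is identical to that of MAGEA3. It was found in 15 of all 35116 promoters of the same length (0.0427%), the members' own 8 among them. Those 15 belong to 10 genes, among them MAGEA2, MAGEA2B and CSAG1. GGATGTG was found in 11 of the 14 promoters, from 6 of the 7 genes (all but PRAME), and in 4.29% of all promoters. The 14 promoters hold 4 to 19 CpG dinucleotides, against a median of 14 over all promoters.

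RNA was counted by 3′ tag sequencing (QuantSeq FWD), in which reads come from near the polyadenylated end of a transcript. Gene counts in the 10 human-gene libraries ranged from 198690 to 1999840, and the lowest was an A375 dabrafenib library. The A375 DMSO library carries another run stamp than the other 9, so run and group cannot be told apart wherever it is used. Mitochondrially encoded genes took 4.88% to 7.21% of gene counts in A375-BIR with dabrafenib, 4.63% to 5.49% in A375-BIR with DMSO, 10.7% to 15.1% in A375 with dabrafenib and 15.1% in A375 with DMSO. The 9 melanoma and melanocyte markers summed to 246 to 353 CPM (counts scaled by the TMM method to a common library size) in A375-BIR with dabrafenib, 204 to 227 CPM in A375-BIR with DMSO, 3277 to 3823 CPM in A375 with dabrafenib and 2226 CPM in A375 with DMSO. MLANA and TYR, 2 of those markers, were at 0 in both A375-BIR groups. MLANA was also at 0 in A375 with DMSO. Of 8 markers of testis germ cells, 6 to 8 were at 0 in every group, and together they reached at most 6.19 CPM in any library. Other markers that could point to foreign cells were low in all groups: 6 leukocyte markers summed to 13.4 to 46.6 CPM and 6 fibroblast markers to 8.46 to 30.9 CPM. Of the 6 keratinocyte markers, which summed to 25.9 to 69.4 CPM, KRT5, KRT1, DSG3 and TP63 were at 0 in every library. The part of these differences in what follows was not tested. In bulk RNA, fewer cells carrying a transcript and less of it per cell cannot be told apart.

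Of the 9 genes, 7 had enough counts to be tested among 10236 genes with edgeR's quasi-likelihood test. MAGEA6 and MAGEC1 did not. The filter on counts keeps a gene that is high in 1 group alone. MAGEA1 passed it through A375-BIR alone and CTAG2 through A375 alone, which bears on the direction of these 2. The counts and medians of the 7 are therefore given as a description. The threshold for a call was an adjusted p (Benjamini-Hochberg, over every gene tested) of 0.05, and changes are log2 values with an approximate standard error. With both lines in dabrafenib, A375-BIR had 2 of the 7 higher (MAGEC2 and MAGEA1), 2 lower (CTAG2 and PRAME) and 3 not called, while 42.7% of all tested genes were called, 22.6% higher and 20.2% lower. The CPM ranges of the groups did not overlap for 5 of the 7, against 48.2% of all tested genes. Their median log2 change was -0.34, against 0.043 over all genes. With both lines in DMSO, A375-BIR had 5 higher and 2 lower, where 51.8% of all genes were called (25.1% higher, 26.7% lower), and the medians were 2.23 and 0.0052. The ranges of none of the 7 overlapped, as for 84.4% of all genes, since 1 library alone makes up a range. Dabrafenib against DMSO left 0 of the 7 called in A375-BIR, where 2.46% of all genes were called (1.36% higher, 1.1% lower); 0 also had an unadjusted p under 0.05, and DESeq2 called 0, giving no adjusted p for MAGEA1 and MAGEA3. In A375 the same comparison had 4 higher and 1 lower, where 38.6% of all genes were called (17.9% higher, 20.7% lower), with medians of 1.42 and 0, and the ranges of all 7 did not overlap, as for 71.9% of all genes. The last of these comparisons and that of the lines in DMSO share the single A375 DMSO library.

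**Figure D1:**
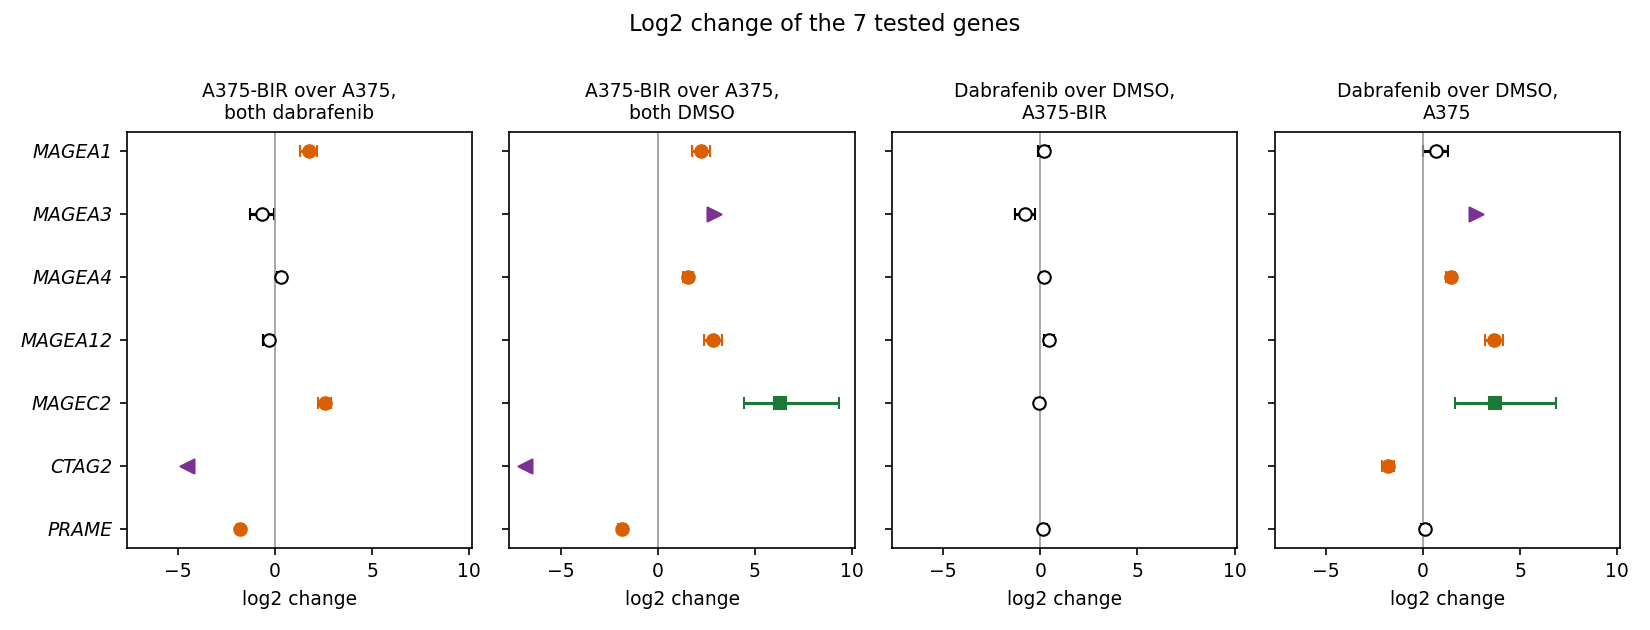
Log2 change of the 7 tested genes in 4 comparisons, the group named first over the group named after it. Circles are edgeR estimates with their standard errors, filled where called. Triangles are used where 1 group had no counts and set the other group against 3 counts over that group. They leave out the counting error of the group with counts. Squares are count ratios with their 95% counting intervals, used where a group had 1 to 3 counts. The third panel, dabrafenib over DMSO in A375-BIR, has 6 open circles between -0.81 and 0.45 and no entry for CTAG2, which had no counts in either group.

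Among the tested MAGE genes, MAGEC2 (chrX:142202345-142205290, - strand), whose protein binds the ligase TRIM28, had the largest change between the lines in dabrafenib. In A375-BIR it stood at 87.6, 115 and 82.8 CPM with dabrafenib and at 91.5, 104 and 102 CPM with DMSO. In A375 it stood at 10.3, 24.5 and 11.3 CPM with dabrafenib and at 1.26 CPM with DMSO. All 6 A375-BIR libraries were above all 4 A375 libraries. In dabrafenib the mean was 95.3 ± 17.6 CPM for A375-BIR, against 15.4 ± 7.95 CPM for A375 (SD, n = 3 each), a log2 change of 2.55 ± 0.32 (adjusted p = 3.95e-08). It was 3.14 ± 0.43 without A375 dabrafenib replicate 2, the highest of the A375 libraries (adjusted p = 3.81e-07). In DMSO the A375 library held 2 counts, and the ratio of A375-BIR to A375 was 78.1, with a 95% counting interval of 21.4 to 648 (adjusted p = 4.90e-12). Within A375 the ratio of dabrafenib to DMSO was 12.9, with an interval of 3.09 to 115 (adjusted p = 0.000461), and the fitted log2 change was 3.52, or 2.93 without the same library (adjusted p = 0.0166). Within A375-BIR the change with dabrafenib was -0.049 ± 0.20 (95% interval -0.45 to 0.35, adjusted p = 0.952).

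MAGEC1 (chrX:141903894-141909388, + strand), which lies 293 kb from MAGEC2 and encodes a larger relative with a repeat region, had no counts in either A375-BIR group. It had 1 count in A375 with dabrafenib and 1 in A375 with DMSO. A group without counts allows a level of up to 1.49 CPM in A375-BIR with dabrafenib and 1.09 CPM in A375-BIR with DMSO (3 counts over the group, counting error only). The 2 MAGE-C genes thus differed in detection: MAGEC2 was counted in every library and MAGEC1 in 2 of 10.

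MAGEA1 (chrX:153179285-153183880, + strand), the gene behind the first human tumour antigen defined with T cells, also separated the lines. It stood at 29.5, 31.5 and 31.1 CPM in A375-BIR with dabrafenib and at 28.0, 26.2 and 27.1 CPM in A375-BIR with DMSO. The A375 libraries had 6.19, 8.93 and 16.9 CPM with dabrafenib and 5.65 CPM with DMSO. The A375-BIR libraries lay above the A375 libraries in every case, although each A375 dabrafenib value rests on 3 or 4 counts. The change between the lines was 1.73 ± 0.44 in dabrafenib (adjusted p = 0.00144) and 2.23 ± 0.46 in DMSO (adjusted p = 0.000107). Dabrafenib gave 0.17 ± 0.28 in A375-BIR (95% interval -0.40 to 0.73, adjusted p = 0.858), where its ranges did not overlap, as for 18% of all genes. In A375 it gave 0.67 ± 0.64 (95% interval -0.64 to 1.97, adjusted p = 0.441).

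MAGEA4 (chrX:151912509-151925170, + strand), whose protein binds the DNA-damage ligase RAD18 and which is a target of engineered T cells, was detected at more than 80 CPM in every library. It stood at 267, 285 and 267 CPM in A375-BIR with dabrafenib and at 222, 270.1 and 237 CPM in A375-BIR with DMSO. For A375 it was 202, 223 and 254 CPM with dabrafenib and at 82.9 CPM with DMSO. The A375 DMSO library was below the other 9. In dabrafenib the A375-BIR and A375 ranges did not overlap, but the change of 0.29 ± 0.17 was not called (95% interval -0.056 to 0.64, adjusted p = 0.171). Against the A375 DMSO library, A375-BIR with DMSO was higher by 1.55 ± 0.24 (adjusted p = 1.72e-06) and A375 with dabrafenib by 1.42 ± 0.25 (adjusted p = 2.52e-05). In A375-BIR dabrafenib gave 0.17 ± 0.16 (95% interval -0.15 to 0.49, adjusted p = 0.702).

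MAGEA12 (chrX:152733779-152737669, + strand), another MAGE-A antigen of melanoma, lies in a cluster with MAGEA3 and MAGEA6. It stood at 45.7, 54.2 and 31.1 CPM in A375-BIR with dabrafenib and at 36.4, 28.2 and 33.9 CPM in A375-BIR with DMSO. For A375 it was 51.6, 62.5 and 56.4 CPM with dabrafenib and at 4.40 CPM, from 7 counts, with DMSO. The A375 DMSO library was again the lowest. A375 with dabrafenib lay above A375-BIR with DMSO, and A375-BIR with dabrafenib overlapped both. In dabrafenib the lines overlapped, with a change of -0.34 ± 0.27 (95% interval -0.89 to 0.21, adjusted p = 0.330). In DMSO, A375-BIR was higher by 2.86 ± 0.47 (adjusted p = 4.51e-06), and within A375 dabrafenib was higher by 3.64 ± 0.47 (adjusted p = 1.63e-07). Within A375-BIR the change was 0.45 ± 0.25 (95% interval -0.059 to 0.96, adjusted p = 0.431).

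MAGEA3 (chrX:152698752-152702347, + strand), which with MAGEA6 directs TRIM28 to the AMPK subunit PRKAA1 and was a cancer vaccine antigen, was counted at low levels. It stood at 5.71, 12.2 and 7.76 CPM in A375-BIR with dabrafenib and at 8.47, 20.2 and 15.2 CPM in A375-BIR with DMSO. The A375 libraries had 12.4, 6.70 and 28.2 CPM with dabrafenib and 0 with DMSO. The 3 groups with counts overlapped one another, and a count of 0 in the A375 DMSO library allows up to 1.88 CPM. Set against that limit, MAGEA3 was 7.49-fold higher in A375-BIR with DMSO (adjusted p = 9.83e-05). In A375 with dabrafenib it was 6.69-fold higher (adjusted p = 0.000778). These folds leave out the counting error of the group with counts, and the adjusted p tests for any change, not for the fold. In dabrafenib the line difference was -0.66 ± 0.62 (95% interval -1.92 to 0.60, adjusted p = 0.411), and in A375-BIR dabrafenib gave -0.81 ± 0.51 (95% interval -1.84 to 0.22, adjusted p = 0.507).

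MAGEA6 (chrX:152766136-152769747, - strand), 63.8 kb from MAGEA3, had 4 counts over all libraries: 2 in A375-BIR with DMSO, 1 in A375 with dabrafenib and 1 in A375 with DMSO. Its value and that of MAGEA3 are uncertain, because the files count reads with a single alignment and these genes end almost alike. Over the last 600 bases of a GENCODE 29 transcript of each they matched at 99.0% of positions, with 6 mismatches. A window of 100 bases, the read length, is the same in both genes at 290 of 501 positions there (57.9%), and at 137 of 201 positions in the last 300 bases (68.2%). CTAG2 shared 107 of 501 windows (21.4%) with CTAG1A and CTAG1B, and 84 of 201 (41.8%) in the last 300 bases, so its counts may be lowered too. The other 6 genes shared none with any other annotated gene.

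**Figure D2:**
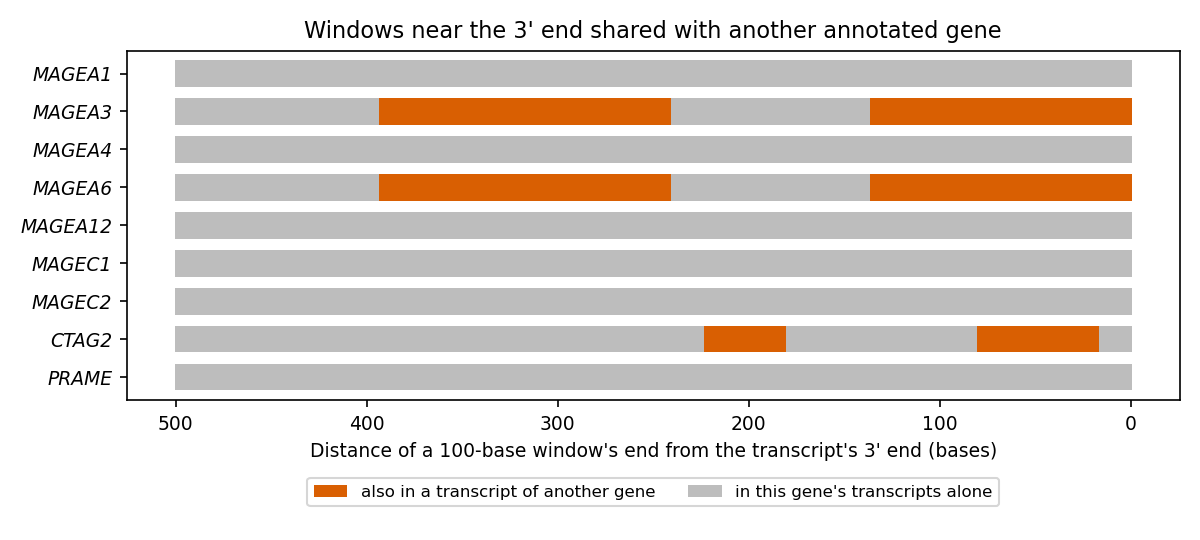
Uniqueness of the 3′ ends of the 9 genes. Each row is 1 transcript, the x axis is the distance in bases between the end of a 100-base window and the transcript's 3′ end, and orange marks windows found also in a transcript of another gene. MAGEA3 and MAGEA6 are orange over 57.9% of positions and CTAG2 over 21.4%.

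CTAG2 (chrX:154651972-154653579, - strand), also known as LAGE-1 and a close relative of NY-ESO-1, was found in A375 alone. It had 0 counts in each of the 3 A375-BIR dabrafenib libraries and each of the 3 A375-BIR DMSO libraries. A375 libraries had 30.9, 40.2 and 33.8 CPM with dabrafenib and 124 CPM with DMSO. Set against 3 counts over the A375-BIR group, CTAG2 was 23.5-fold lower in A375-BIR in dabrafenib (adjusted p = 9.15e-09). In DMSO it was 114-fold lower (adjusted p = 6.62e-15). Both folds leave out the counting error of A375, and the adjusted p tests for any change, not for the fold. Within A375 CTAG2 was lower with dabrafenib by a log2 change of -1.81 ± 0.30 (adjusted p = 1.79e-05), with all 3 libraries below the single DMSO one. With 0 counts in both A375-BIR groups, no response of A375-BIR could be given.

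PRAME (chr22:22547701-22559361, - strand) is a substrate receptor of a CUL2 ubiquitin ligase, is known as a repressor of retinoic acid receptor signalling, and is stained for in melanoma diagnosis. It stood at 141, 140.0 and 135 CPM in A375-BIR with dabrafenib and at 114, 129 and 135 CPM in A375-BIR with DMSO. For A375 it was 497, 475 and 496 CPM with dabrafenib and at 451 CPM with DMSO. Every A375-BIR library was below every A375 library, and it was never absent. In dabrafenib the mean was 138 ± 3.41 CPM for A375-BIR, against 489.6 ± 12.3 CPM for A375 (SD, n = 3 each), a change of -1.82 ± 0.17 (adjusted p = 3.18e-11), and the change was -1.85 ± 0.20 in DMSO (adjusted p = 9.47e-10). Dabrafenib gave 0.15 ± 0.17 in A375-BIR (95% interval -0.20 to 0.49, adjusted p = 0.775) and 0.12 ± 0.21 in A375 (95% interval -0.31 to 0.54, adjusted p = 0.695).

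**Figure D3:**
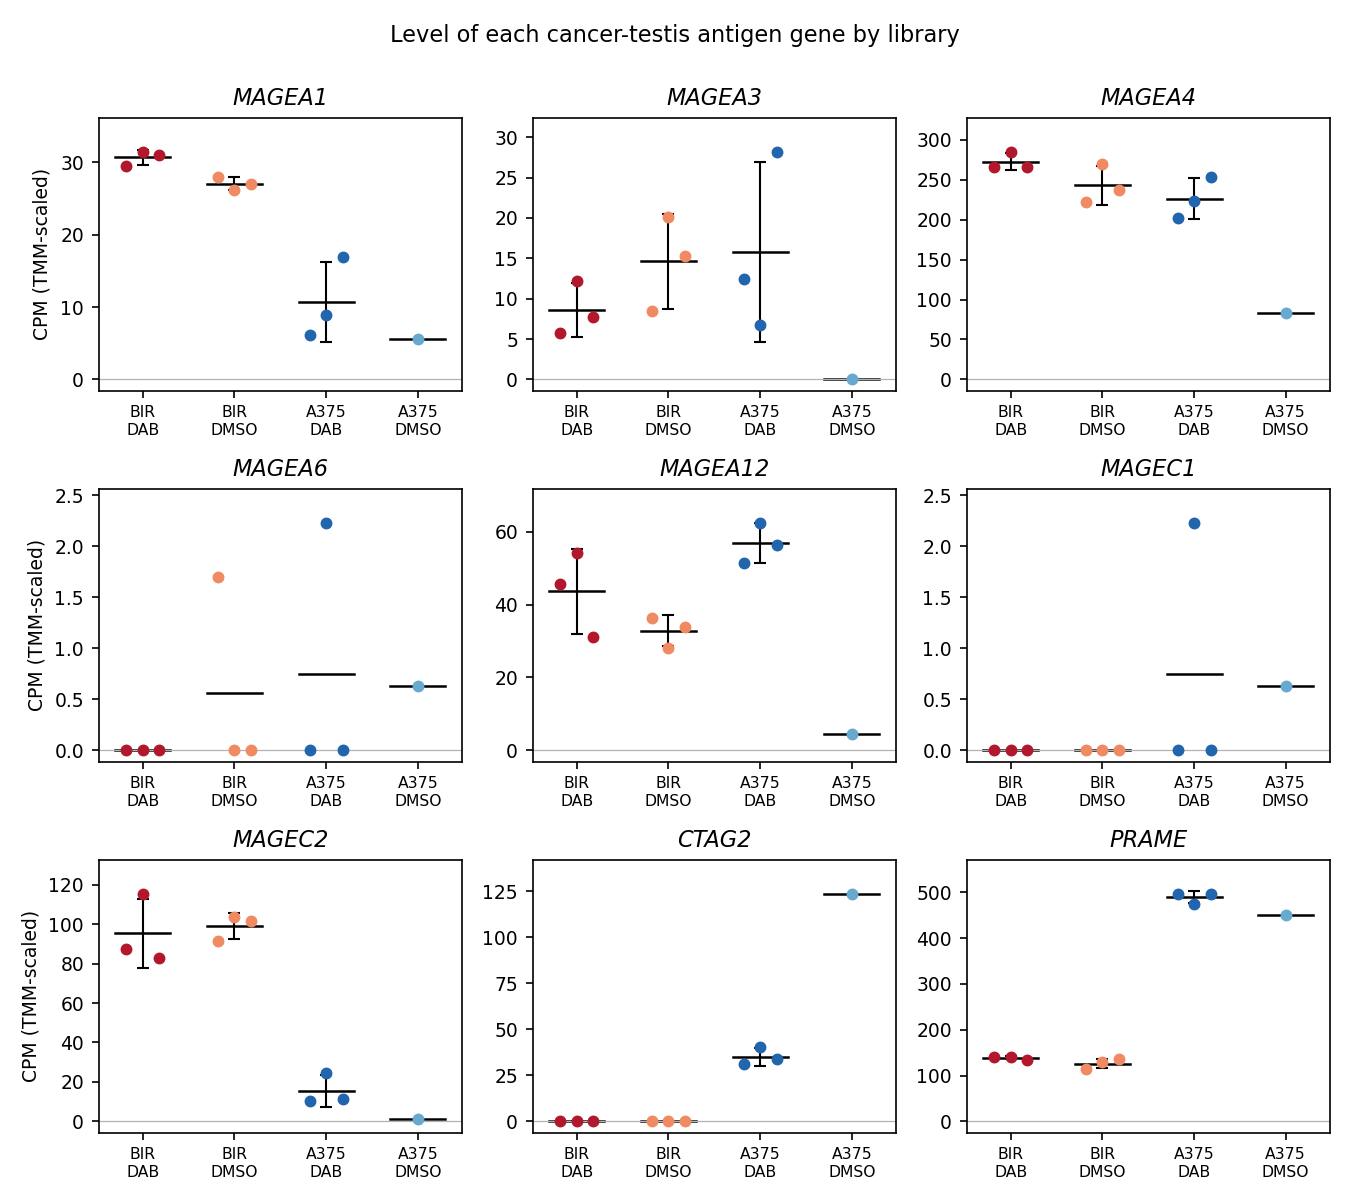
Level of each of the 9 genes in the 10 human-gene libraries, in CPM. Points are libraries, lines are group means and bars are SD (n = 3; none for the single A375 DMSO library, nor for MAGEA6 and MAGEC1, which had 0 to 2 counts per library). MAGEC2 and MAGEA1 are higher and PRAME and CTAG2 lower in all 6 A375-BIR libraries than in the 4 A375 libraries, while MAGEA4, MAGEA12 and MAGEA3 are lowest in A375 with DMSO.

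In order of mean level, A375-BIR with dabrafenib came first for MAGEA1 and MAGEA4, A375-BIR with DMSO for MAGEC2, A375 with dabrafenib for MAGEA3, MAGEA12 and PRAME, and A375 with DMSO for CTAG2. The difference between the 2 A375-BIR groups was not called for any of the 6 of these genes with counts there, nor was that between the 2 A375 groups for PRAME and MAGEA1.

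The response to dabrafenib differed between the lines for 4 of the 7 genes, all lower in A375-BIR, where 22.6% of all tested genes were called (12.7% higher, 9.87% lower). The response in A375-BIR minus that in A375 was -3.57 ± 0.81 for MAGEC2 (adjusted p = 0.00148; -2.98 without A375 dabrafenib replicate 2, adjusted p = 0.0301), -1.26 ± 0.29 for MAGEA4 (adjusted p = 0.00194) and -3.19 ± 0.55 for MAGEA12 (adjusted p = 7.66e-05). MAGEA3 was called in the same direction (adjusted p = 0.00105). The size of its difference cannot be stated because the A375 DMSO library had no counts of it. DESeq2 called the other 3 and did not call MAGEA3. For PRAME the difference was 0.030 ± 0.27 and for MAGEA1 -0.50 ± 0.70, neither called (adjusted p = 0.959 and adjusted p = 0.641), and for CTAG2 it could not be estimated. Each of these values rests on the single A375 DMSO library.

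The make-up of the 9 genes' counts differed between the lines. Their summed level was 589 ± 43.9 CPM in A375-BIR with dabrafenib, 543 ± 38.0 CPM in A375-BIR with DMSO, 851 ± 43.5 CPM in A375 with dabrafenib (SD, n = 3 each) and 671 CPM in A375 with DMSO. PRAME took 21.9% to 24.5% of the 9 genes' counts in A375-BIR with dabrafenib and 22.3% to 24.6% in A375-BIR with DMSO. It took 55.3% to 61.3% in A375 with dabrafenib and 67.3% in A375 with DMSO. MAGEA4 took a median of 46.3% and 44.2% in A375-BIR with dabrafenib and with DMSO, against 26.4% and 12.4% in A375 with dabrafenib and with DMSO. MAGEC2 took a median of 15.2% and 18.2% in those A375-BIR groups, against 1.27% and 0.187% in those A375 groups.

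**Figure D4:**
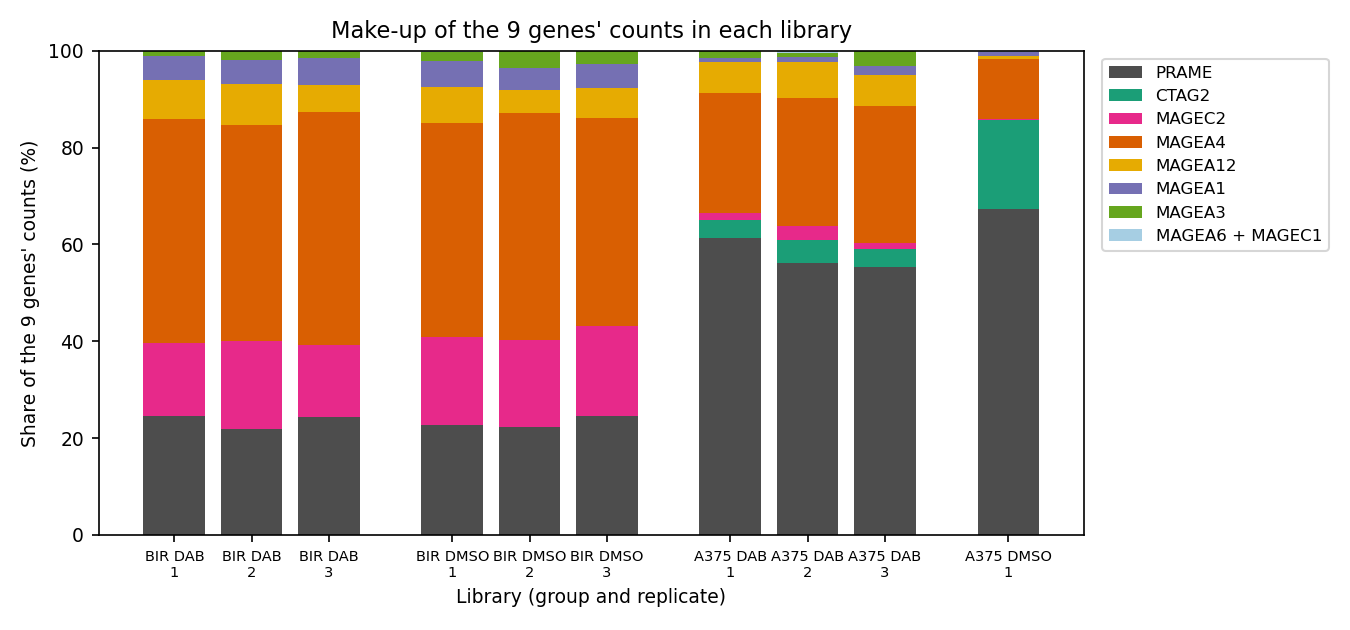
Share of the 9 genes' counts that each gene took, in percent, in each of the 10 libraries. Each bar is 1 library. Both A375-BIR groups show a wide MAGEA4 and MAGEC2 band and no CTAG2, and the 4 A375 libraries are over 55% PRAME.

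Few other X-linked cancer-testis genes had enough counts to be tested. Of 72 listed, 68 were found and 6 had enough counts. The filter keeps a gene that is high in 1 group alone, which bears on the direction of these 6. MAGEA10, PAGE5 and CT83 passed it through A375-BIR alone. In A375, MAGEA10 had 10 counts with dabrafenib and 12 with DMSO. PAGE5 had 3 counts with dabrafenib and 2 with DMSO there, and CT83 had 0 with either. The counts and the median of the 6 are therefore given as a description. With both lines in dabrafenib 5 of these 6 were higher in A375-BIR and 0 lower, with a median of 2.16 against 0.043 over all genes. Over all tested genes 22.6% were higher and 20.2% lower there. MAGEA10, a further MAGE-A gene, had 86.8 ± 9.29 CPM in the A375-BIR libraries, against 8.46 ± 6.25 CPM in the A375 ones (log2 change 3.26 ± 0.37, adjusted p = 4.58e-09). PAGE5 stood at 69.2 ± 44.8 CPM in A375-BIR, and with 3 counts in A375 its fitted change was called (adjusted p = 4.28e-06). IL13RA2, a receptor that binds interleukin 13, was higher by 1.07 ± 0.24 (adjusted p = 0.000412), and CT83 had 24 counts in A375-BIR and 0 in A375 (adjusted p = 0.00123). Dabrafenib against DMSO left 0 of the 6 called in A375-BIR, where 2.46% of all tested genes were called. In A375 1 of them, IL13RA2, was lower with dabrafenib (log2 change -2.46 ± 0.25, adjusted p = 1.22e-09), where 38.6% of all tested genes were called. With both lines in DMSO 4 were higher in A375-BIR and IL13RA2 was lower. Over all tested genes 25.1% were higher and 26.7% lower in that comparison.

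Of 29 autosomal testis and meiosis genes found, 5 were tested. In dabrafenib, LIN28B and SPA17, a sperm surface protein gene, were higher in A375-BIR and ROPN1B, a sperm tail gene, was lower (log2 change -3.09 ± 0.40, adjusted p = 7.03e-08). In A375 with dabrafenib LIN28B had 1 count and SPA17 had 6, and both passed the filter through A375-BIR alone. ROPN1B passed it through A375 alone. The filter thus bears on these directions. Over all tested genes 42.7% were called in that comparison. Of 5 tested type II MAGE genes, which most tissues express, 4 were lower in A375-BIR in dabrafenib (NDN, MAGED2, MAGED1 and MAGEF1), like PRAME and CTAG2. Of the 5, 0 were higher, and over all tested genes 20.2% were lower. Their median was -1.07, against 0.043 over all genes. MAGED2 had 82.5 ± 32.4 CPM in the A375-BIR libraries, against 186 ± 10.0 CPM in the A375 ones (log2 change -1.07 ± 0.22, adjusted p = 0.000118). NDN, an imprinted type II gene, had 0 counts in A375-BIR and 103 in A375, and passed the filter through A375 alone. With both lines in DMSO, NDN, MAGED1 and MAGED2 were lower in A375-BIR and 0 higher, where 26.7% of all tested genes were lower. Within A375, NDN, MAGEF1 and NSMCE3 were higher with dabrafenib than with DMSO, and MAGED1 was lower.

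Among 23 tested genes of proteins known to partner MAGE or PRAME proteins, 4 were higher and 4 lower in A375-BIR in dabrafenib, with a median of 0.18. These 8 calls are a smaller share than the 42.7% of all tested genes called in that comparison, where the median was 0.043. PRKAA1, the AMPK subunit, was higher by 0.91 ± 0.26 (adjusted p = 0.00532), and TRIM27, a RING ligase, was lower by a log2 change of -1.33 ± 0.27 (adjusted p = 0.00013). RXRB and RARB, receptors of the retinoid pathway, were lower (log2 changes -1.35 ± 0.31 and -1.89 ± 0.59, adjusted p = 0.000596 and adjusted p = 0.00894). Of 28 tested genes of DNA methylation and silencing, 4 were higher and 5 lower, with a median of -0.16; this share too is below that of all tested genes. HELLS, a chromatin remodeller needed for DNA methylation, was higher by 2.45 ± 0.24 (adjusted p = 1.01e-10), and MBD2, a reader of methylated DNA, by 1.62 ± 0.23 (adjusted p = 4.47e-07). DNMT3A, a DNA methyltransferase, was lower (log2 change -1.69 ± 0.30, adjusted p = 1.59e-05), as was ETS1, a transcription factor that binds GGA motifs (log2 change -0.96 ± 0.19, adjusted p = 6.27e-05). In DMSO, ETS1 was instead higher in A375-BIR (1.43 ± 0.27, adjusted p = 3.15e-05). In A375-BIR dabrafenib against DMSO left 0 called in each of these 4 lists, where 2.46% of all tested genes were called.

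Genes beside the 9 were examined for their own calls. Of 77 genes starting within 200 kb of a member, 16 were tested. GABRE and F8, with 1 count each in A375 with dabrafenib and 1 with DMSO, passed the filter through A375-BIR alone. ZNF280B, with 3 counts in A375-BIR with dabrafenib and 0 with DMSO, passed it through A375 alone. The counts and the median of the 16 are therefore given as a description. In dabrafenib, A375-BIR had 3 of the 16 higher (GABRE, DKC1 and F8) and 4 lower (among them ZNF275, SLC10A3 and ZNF280B), a share close to the 42.7% of all tested genes called, with a median log2 change of -0.26 against 0.043 over all genes. Dabrafenib against DMSO left 0 called in A375-BIR, where 2.46% of all tested genes were called. MAGEA4-AS1, an antisense gene overlapping MAGEA4 over 1460 bases, had 68 counts in A375-BIR with dabrafenib, 74 in A375-BIR with DMSO, 29 in A375 with dabrafenib and 16 in A375 with DMSO. Like MAGEA4, it was higher in A375 with dabrafenib than with DMSO (1.35 ± 0.47, adjusted p = 0.0203). The shared bases lie at the 5′ end of both genes, away from their 3′ ends. The strand setting of the counting is not given, so reads within those bases cannot be assigned to 1 of the pair. CSAG1, whose annotated end lies between MAGEA3 and MAGEA12 and whose promoter also holds GCCACTGACTTGCGC, was not called between the lines in dabrafenib (log2 change -0.55 ± 0.36, adjusted p = 0.221).

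By the smallest Euclidean distance between mean-centred log2 CPM over the 10 libraries, the nearest gene was PHACTR2 for MAGEA1 (distance 0.49, Pearson r 0.98), LPGAT1 for MAGEA4 (0.29, r 0.98), TFPI for MAGEC2 (0.67, r 0.99) and ATXN1 for PRAME (0.47, r 0.99). For MAGEA12 it was BCAR3 (0.72, r 0.97), for CTAG2 BAALC (0.95, r 0.99) and for MAGEA3 KLHL9 (1.40, r 0.90). These likenesses are across libraries that share lines and treatments, and are given as a description.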

How the data were processed

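RNA of 2 cell lines was counted in 12 libraries. The authors deposited raw read counts per gene (whole numbers, 1 file per library), made per the labels' protocols from QuantSeq 3′ FWD libraries of 250 ng RNA and single-end reads of 100 bases; per the submitters' processing notes the build is hg38. Which aligner and counter were used, and whether counting used strand, is not given in the sources used here. The 5 lines at the end of each file name no gene and were left out, and 20.4% to 31.1% of a human-gene library's reads, summed over all lines, were counted on genes. The 2 further libraries labelled A375 DMSO list 31053 mouse genes and entered no comparison.

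From the 10 human-gene libraries, genes were kept with filterByExpr (minimum count 10), scaled with TMM factors, then fitted in edgeR 4.0.16 (R 4.3.3; glmQLFit, robust, 1 coefficient per group, 6 residual degrees of freedom, spread pooled over groups, so the lone A375 DMSO library is assumed to vary like the others). The labels list 3 A375 DMSO libraries, and the design was written knowing from earlier results that 1 of them lists human genes. DESeq2 1.42.0 was an alternative. Standard errors are the size of the log2 change over the square root of F. Folds against a group with no counts use a floor of 3 counts over the group. They leave out the counting error of the other group. Replicates are the labels' biological replicates. Replicate numbers did not pair the libraries (2 of 9 same-number pairs had a correlation of deviations above 0.1).

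The members, gene lists, motifs and tests were chosen with earlier results of these data known. All 9 members are named; of other lists, at most 4 called genes per comparison, by smallest p, and some genes that this rule names are not reported here. The procedure was tested on simulated data. Of log2 changes of 1, it recovered 54% between the lines in dabrafenib and 42% in DMSO. Within A375-BIR it recovered 67% and within A375 26%. Of log2 changes of 2 it recovered 84% to 90%, with 3 to 8 false calls per comparison. A gene that was not called can therefore still have changed. Alternatives tried were other scalings, DESeq2, no filter, a mean count of at least 50, fewer groups in the fit, near-identical gene pairs summed, a replicate block and leaving out each library.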

Additional observations from a re-analysis of the deposited data

Results flagged for a closer look

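The response to dabrafenib in A375-BIR minus that in A375 passed the threshold for 4 genes, a test of the difference itself with edgeR: MAGEC2 (log2 -3.57, adjusted p = 0.00148; -2.98 without A375 dabrafenib replicate 2), MAGEA4 (-1.26, adjusted p = 0.00194), MAGEA12 (-3.19, adjusted p = 7.66e-05) and MAGEA3 (fitted -7.09, adjusted p = 0.00105). The MAGEA3 value depends on a group without counts and is no bound. DESeq2 called 3 of the 4 and did not call MAGEA3. All 4 draw on the single A375 DMSO library, which carries another run stamp than the other 9, so a difference of run and of group cannot be told apart. MAGEC2 had 2 counts, MAGEA12 had 7 and MAGEA3 had 0 in that library. Its reads outside annotated genes were 20.1% of the total, against 28.6% to 30.9% in the other 9, and its reads with more than 1 alignment were 52.5%, against 40.0% to 49.4%; their part in the result was not tested.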

How the results depend on the processing

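The alternatives gave 341 log2 changes of members in the same direction and on the same side of the threshold, and 5 reversed. For 2 more (MAGEA1 and MAGEA3 in A375-BIR) DESeq2 gave no adjusted p. Changes that involve a group without counts are not among these values. They are those of MAGEA3 wherever A375 with DMSO entered and of CTAG2 wherever A375-BIR entered. The reversed ones were never called: MAGEC2 in A375-BIR with dabrafenib against DMSO was 0.039 without A375-BIR dabrafenib replicate 1 and 0.018 without replicate 3 (-0.049 with all, -0.20 to 0.039 when each library was left out), and the difference of responses for PRAME was -0.25 with raw totals, -0.071 among genes averaging 50 counts or more and -0.045 without A375-BIR DMSO replicate 1 (0.030 with all, -0.045 to 0.075 when each library was left out). Members called stayed at 4 with both lines in dabrafenib, 0 in A375-BIR, 5 in A375, 7 with both lines in DMSO and 4 for the difference of responses when each library was left out; among genes averaging 50 counts or more, where fewer members were tested, they were 1, 0, 1, 2 and 1. Genes called with that filter were 1764, 137, 1669, 1895 and 1133, against 4374, 252, 3948, 5298 and 2313. DESeq2 called 3 members for the difference of responses and did not call MAGEA3 there. Of all genes it called 106 in A375-BIR, 2485 in A375 and 1153 for the difference of responses. In A375-BIR a fit of its 2 groups alone called 125, and leaving out a library gave 106 to 558 (558 without A375-BIR dabrafenib replicate 2, and 106, 140 and 107 without A375-BIR DMSO replicate 1, 2 and 3). With the replicate number as a block the members called were 4, 0, 5, 7 and 4 and the genes called 4292, 239, 3296, 4579 and 1750. Raw totals moved the median of all genes by 0.12 with both lines in dabrafenib, 0.40 with both in DMSO, 0.26 in A375 and -0.28 for the difference of responses; the calls of members were the same. Leaving out the A375 DMSO library gives no value for the comparisons that use it. MAGEA1, MAGEA3 and MAGEC2 had as few as 0 to 3 counts in a library, which limits the precision of their values.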

Other observations

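Antigen presentation and melanocyte antigens were set beside the cancer-testis genes, since peptides of both kinds reach T cells on the same molecules. Of 16 tested genes of MHC class I presentation, A375-BIR had 5 higher and 2 lower with both lines in dabrafenib, a share close to the 42.7% of all tested genes called, and the median log2 change was 0.17, against 0.043 over all genes. In DMSO 2 were higher and 7 lower, where 51.8% of all tested genes were called. PSME1, a proteasome activator subunit, had 228 ± 53.1 CPM in the A375-BIR libraries, against 73.7 ± 11.4 CPM in the A375 ones (log2 change 1.61 ± 0.21, adjusted p = 9.57e-08), and CALR, a chaperone of the peptide-loading complex, had 469 ± 62.5 CPM, against 235 ± 35.3 CPM in A375 (0.99 ± 0.18, adjusted p = 2.66e-05). In DMSO, CALR was instead lower in A375-BIR. Dabrafenib against DMSO left 0 of the 16 called in A375-BIR, where 2.46% of all tested genes were called.

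Of 10 melanocyte differentiation antigens, 3 were tested, of which TYR passed the filter through A375 alone. DCT, a pigment enzyme, had 16.3 ± 8.65 CPM for A375-BIR, against 1746 ± 208 CPM for A375, in dabrafenib (log2 change -6.75 ± 0.27, adjusted p = 1.63e-20), and TYR, the key pigment enzyme, had 0 counts in A375-BIR and 35 in A375. DCT was the member of this list called in A375-BIR with dabrafenib against DMSO, with 32 counts with dabrafenib and 2 with DMSO (adjusted p = 0.000247).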
